A study of Macaca mulatta with 9 samples.

Results

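NFATC2 encodes a member of the nuclear factor of activated T cells (NFAT) family of transcription factors. It is 1 of 14132 genes that the array's annotation names by a single symbol, and the exact symbol NFATC2 stood beside 4 of the 52865 probe sets. The gene was chosen by its measured signals on these same 9 arrays, for a high level in follicles of animals on the western-style diet and a lower one where testosterone was added. Its levels and group differences are therefore given as a description, with no test.

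RNA came from small antral follicles (SAFs) of rhesus macaques, all young adult females sampled in the early follicular phase, at or near menses. The WSD+T group ate a western-style diet and had chronically elevated androgen (testosterone), the WSD group ate the western-style diet alone, and the control group ate a standard diet. The follicles, picked as healthy because the antrum was clear, were combined for each female's ovary, 3.7 ± 0.3 per ovary (the kind of error is not stated) from 3 ovaries per group, and 1 array was run per pool. Follicle wall, granulosa cells and cumulus-oocyte complex were lysed together, so fewer cells of a type and less RNA per cell cannot be told apart. The labels used here give neither the dose of testosterone nor the length of either treatment.

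In resting cells NFAT proteins are kept phosphorylated in the cytoplasm. Calcium entering the cell activates calmodulin and then the phosphatase calcineurin, which strips the phosphates so that NFAT moves into the nucleus and, often together with AP-1 factors such as FOS, switches genes on. NFAT kinases reverse the step, and RCAN proteins restrain calcineurin. NFATC2 is best known from T lymphocytes, where it drives cytokine genes, but it also acts in other cell types. The array reads RNA only, so phosphorylation and location of the protein were not measured.

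Several arrays stood apart. WSD+T replicates 1 and 3 correlated at 0.993 over the tested probe sets, against 0.862 to 0.985 for other pairs within a group. Within-group variance of the log2 values averaged 0.0411 in WSD+T, 0.33 in WSD and 0.152 in control, and all 3 groups share 1 estimate of spread in the tests. The brightest granulosa markers, SERPINE2, NR5A2, FST and INHBA, and the brightest theca marker, STAR, read above the filter on every array. So did the fainter members of these lists, apart from INHBB and NR5A1. The granulosa marker INHBB read 21.0 and 19.5 in WSD+T replicates 1 and 2, against a filter signal of 21.2. It read 5.70 and 12.7 in WSD replicates 2 and 3. The theca marker NR5A1 read 14.7 to 18.5 in WSD+T, and 17.7 and 11.2 in WSD replicates 1 and 2. The 9 granulosa markers summed to signals of 9648 to 11014 in WSD+T, 7679 to 12855 in WSD and 13285 to 17630 in control. Bright members weigh most in this sum, and SERPINE2 alone averaged 4435 in WSD+T, 4471 in WSD and 4760 in control. The 7 oocyte markers, led by ZP4 and ZP3, summed to 1190 to 1362 in WSD+T, 998 to 1490.4 in WSD and 506 to 1067 in control. Median signals ran between 15.9 and 23.8 per array. The number of arrays limits the precision.

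NFATC2 was far higher in WSD follicles than in either other group. Its brightest probe set, MmugDNA.9900.1.S1_at, read 131, 161 and 388 in WSD+T replicates 1 to 3, 1628, 2540.2 and 1967 in WSD replicates 1 to 3, and 152, 76.5 and 77.7 in control replicates 1 to 3 (scaled signal). All WSD arrays were high, the lowest of them 4.19-fold above the highest array of the other groups, and WSD+T overlapped control. The mean signal was 227 ± 141 in WSD+T, 2045 ± 461 in WSD and 102 ± 43.0 in control (SD, n = 3 each). The ratio of mean signals was 20.1 for WSD over control, 0.111 for WSD+T over WSD and 2.22 for WSD+T over control.

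The second probe set, MmugDNA.20507.1.S1_at, had a like profile. It read 54.0, 63.4 and 162 in WSD+T, 844, 1414 and 878 in WSD, and 60.7, 40.0 and 16.4 in control. Again WSD stood clear, its lowest array 5.22-fold above the highest of the others, while WSD+T and control overlapped. Mean signals were 93.1 ± 59.7 in WSD+T, 1045 ± 319 in WSD and 39.0 ± 22.2 in control (SD, n = 3 each), with ratios of means of 26.8 for WSD over control and 0.089 for WSD+T over WSD. In both probe sets WSD replicate 2 was the highest array.

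**Figure D1:**
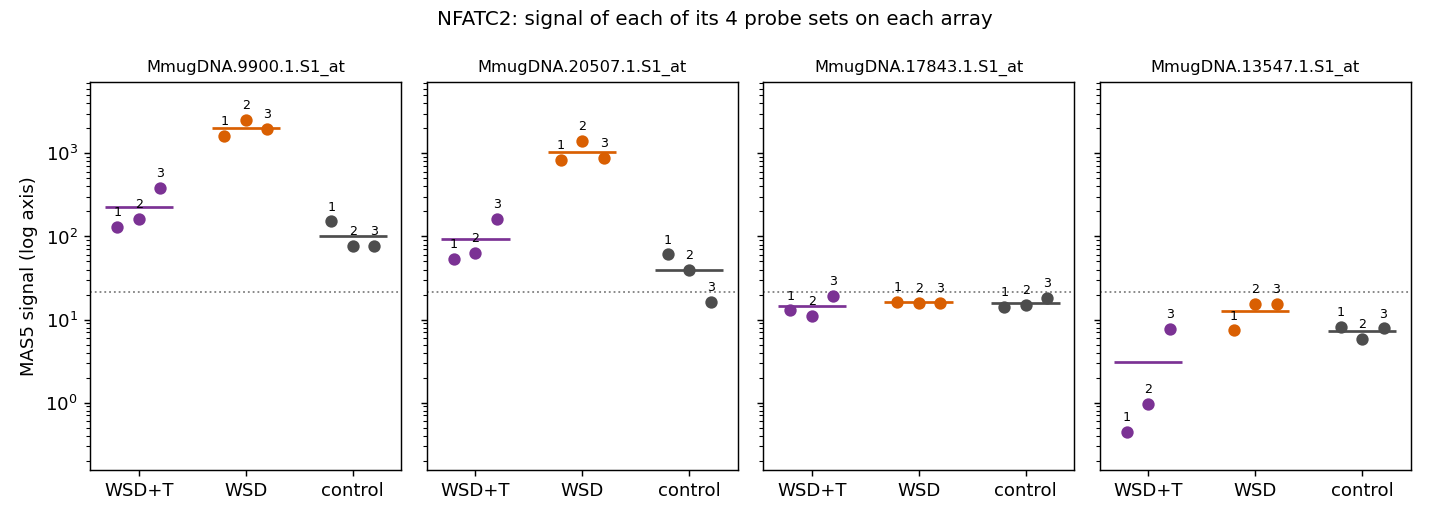
Signal of each NFATC2 probe set (log axis) on every array of WSD+T, WSD and control; numbers are replicate numbers, horizontal bars are group means, and the dotted line is the signal that matches the filter, 21.2. In the left pair of panels the WSD arrays, from 844 to 2540.2, sit above every other array, while in the right pair all arrays lie below the line.

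On the log2 scale used for all tests, log2 of signal plus 16, the brightest probe set differed by 4.16 ± 0.40 (SE) between WSD and control, by -3.21 ± 0.40 between WSD+T and WSD, and by 0.95 ± 0.40 between WSD+T and control. The second gave 4.32 ± 0.42, -3.37 ± 0.42 and 0.94 ± 0.42 for the same differences. By size of the log2 difference between WSD and control, these probe sets ranked 6 and 2 of the 26383 that passed the filter. Between WSD+T and WSD they ranked 5 and 4. Between WSD+T and control they ranked 2202 and 2233. The order of the group means, WSD, then WSD+T, then control, was shared by both probe sets, but the WSD+T and control arrays did not separate.

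In WSD+T, replicate 3 was 2.97-fold above replicate 1 for the brightest probe set and 3.00-fold for the second, although these arrays were the most alike of all pairs over the tested probe sets. Without that array the log2 difference between WSD+T and control was 0.51 for the brightest probe set, against 0.95 over all arrays, and 0.52 for the second, against 0.94. In WSD the highest array was 1.56-fold above the lowest for the brightest probe set and 1.67-fold for the second. In control it was 1.98-fold for the brightest and 3.70-fold for the second, wider there than in WSD+T.

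The other 2 NFATC2 probe sets read low. MmugDNA.17843.1.S1_at read 12.9, 11.1 and 19.2 in WSD+T, 16.5, 15.9 and 15.97 in WSD, and 14.0, 14.9 and 18.1 in control. MmugDNA.13547.1.S1_at read 0.44, 0.974 and 7.77 in WSD+T, 7.40, 15.3 and 15.4 in WSD, and 8.15, 5.80 and 7.82 in control. Both lay below the filter on every array, were not tested, and overlapped between WSD and control. Their log2 differences between WSD and control were 0.02 and 0.29. The tested pair passed the filter without help from WSD, with means of 7.30 and 6.17 over the 6 other arrays against a filter of 5.22. Which transcripts each probe set reads was not checked against probe sequences.

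Because NFATC2 is abundant in lymphocytes, leukocyte markers were read on the same arrays. The 5 pan-leukocyte markers on the array (LCP1, CD53, CD48, PTPRC and CORO1A) summed to 6928, 5809 and 6424 in WSD+T, 7164, 11010.3 and 342 in WSD, and 4232, 541 and 692 in control. WSD+T arrays and WSD replicates 1 and 2 were high, whereas WSD replicate 3 was the lowest of all 9. NFATC2 read 131 to 388 in the WSD+T arrays and 1967 in WSD replicate 3. The part of leukocytes in the NFATC2 signal was not tested. PTPRC, which marks all leukocytes, read 35.6 in WSD replicate 3 and 769 to 1070.1 in WSD+T.

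The 11 myeloid markers, led by LYZ, AIF1, TYROBP and CD68, summed to 13303 to 15097 in WSD+T, 886 to 21352 in WSD and 1716 to 8731 in control. The T cell coreceptors CD4, CD8A and CD8B read 7.01, 16.7 and 8.40 in WSD replicate 3, below the filter. In WSD replicate 2 they read 80.1, 41.2 and 124. GZMB, a brighter member of the T and NK list, read 27.0 in WSD replicate 3, above the filter. Its range was 317 to 460 in WSD+T, 27.0 to 339 in WSD and 22.5 to 172 in control. The summed T and NK list, 1892 to 2018 in WSD+T, 1623 to 2122 in WSD and 1589 to 1784 in control, was mostly KLRD1, an NK cell receptor chain. KLRD1 read 1306, 1465 and 1569 in WSD replicates 1 to 3, so the sum says little about the other members. No pan-leukocyte, myeloid or T and NK marker passed limma's test between WSD and control or between WSD+T and WSD. Among all genes 4.74% were higher and 10.7% lower in WSD against control, and 2.06% and 0.79% in WSD+T against WSD. At limma's unadjusted p under 0.05 there was 1, a T and NK marker higher in WSD than in control. At that threshold 10.7% of all genes were higher there and 21% lower. Median log2 fold changes of the pan-leukocyte and myeloid markers were 1.55 and 1.1 for WSD against control. For WSD+T against control they were 2.26 and 2.13. PTPRC had an SE of 1.28, so the lack of calls does not show equal levels. Within the control group, replicate 1 had both the highest leukocyte sum and the highest NFATC2.

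**Figure D2:**
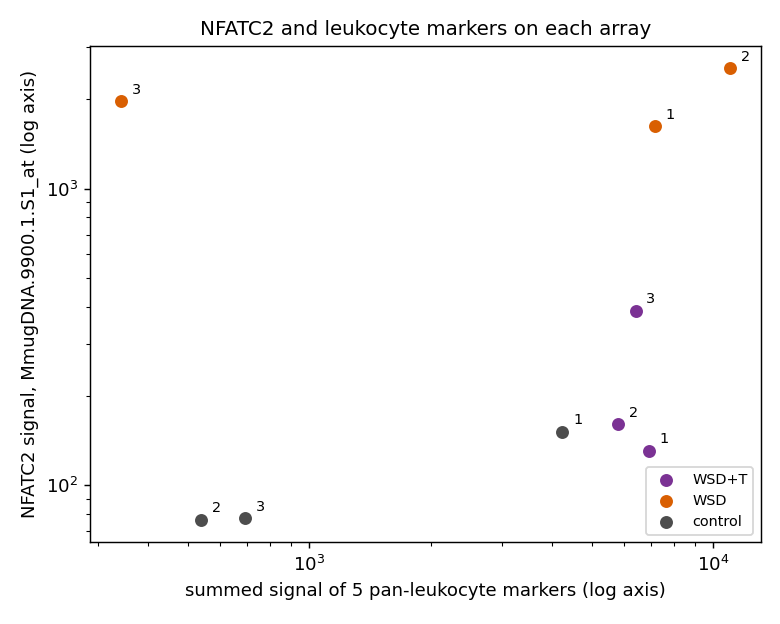
NFATC2 signal (brightest probe set, vertical log axis) against the summed signal of 5 pan-leukocyte markers (horizontal log axis), 1 point per array, numbered by replicate and coloured by group. WSD replicate 3, at 342 and 1967, lies at the upper left, and the WSD+T arrays, at 5809 to 6928, lie at the lower right.

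The rest of the calcineurin-NFAT pathway was read from 7 lists of 128 genes, of which 100 were on the array and 73 passed the filter. These lists were chosen with earlier results of these data known. A gene passed the test where limma's two-sided p, adjusted by Benjamini-Hochberg over all 26383 probe sets, was under 0.05; each gene stands for its brightest tested probe set. In WSD against control, 9 of the 73 were higher (12.3%) and 6 lower (8.22%), beside 4.74% higher and 10.7% lower among all 10002 genes. The median log2 fold change was 0.12 over the 73 and -0.08 over all genes. In WSD+T against WSD, 1 gene was higher and 1 lower (1.37% each), beside 2.06% and 0.79% of all genes, with medians of -0.04 and 0.09. In WSD+T against control limma called 0 of the 73 in either direction, beside 0.62% higher and 1.73% lower among all genes, and at an unadjusted p under 0.05 there were 15 higher (20.5%) and 4 lower (5.48%), beside 9.93% and 10.4% of all genes. Without WSD replicate 3, 17 genes were higher in WSD than in control, 6 higher in WSD+T than in control and 3 lower in WSD+T than in WSD. The counts over all genes moved too in that setting, to 1141 higher in WSD than in control, against 474 with all arrays, and to 396 higher in WSD+T than in control, against 62, and to 119 lower in WSD+T than in WSD, against 79. Without WSD replicate 2, 5 were higher in WSD+T than in control (270 of all genes) and 2 lower in WSD+T than in WSD (175 of all genes), and without control replicate 2 or 3 only 3 were lower in WSD than in control, where all genes gave 483 or 620 in place of 1071.

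**Figure D3:**
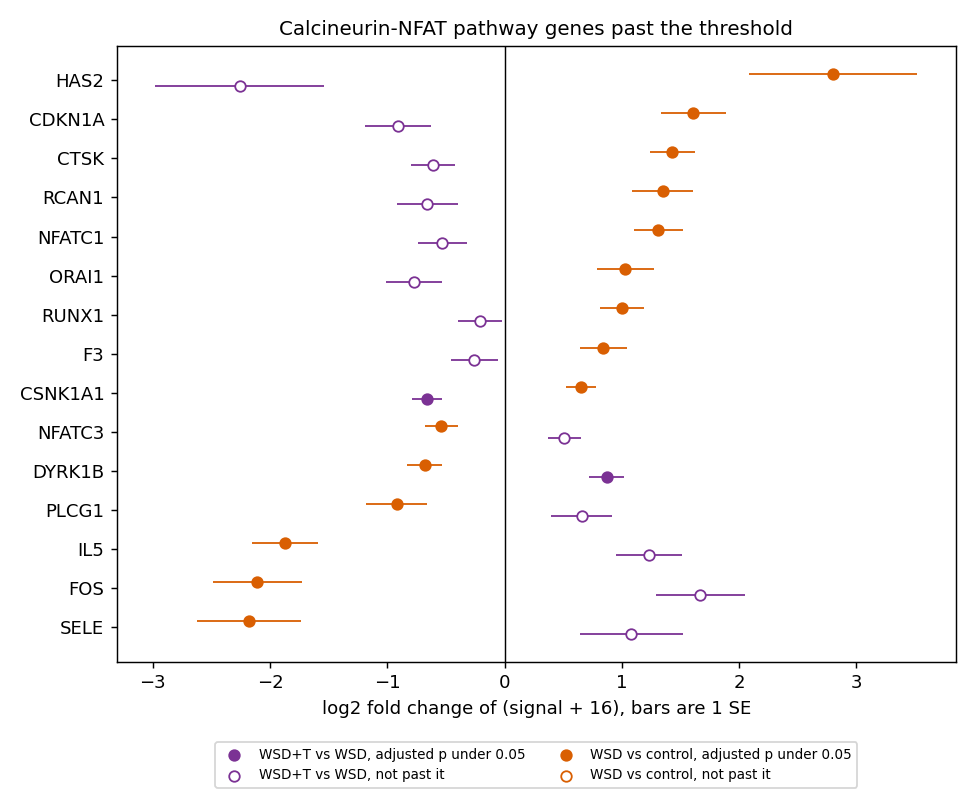
Log2 fold change of signal plus 16, with bars of 1 SE, for the 15 pathway genes past the threshold in at least 1 comparison; purple is WSD+T against WSD, orange is WSD against control, and filled points have a limma adjusted p under 0.05. From HAS2 at 2.80 to SELE at -2.18 in WSD against control, all 15 orange points are filled, while CSNK1A1 and DYRK1B alone have filled purple points.

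Of the other NFAT family members, NFATC1 was higher in WSD than in control and NFATC3 was lower. NFATC1 read 142, 150 and 169 in WSD+T, 239, 193 and 253 in WSD, and 78.7, 114 and 61.0 in control. The 3 groups did not overlap. Its log2 fold change was 1.31 ± 0.21 (adjusted p = 0.00732) for WSD against control, -0.53 ± 0.21 (adjusted p = 0.191) for WSD+T against WSD and 0.78 ± 0.21 (adjusted p = 0.0952) for WSD+T against control. A second NFATC1 probe set gave 0.55 (adjusted p = 0.160) for WSD against control.

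NFATC3 read 1003, 962 and 1022 in WSD+T, 649, 686 and 751 in WSD, and 1106, 1069 and 887 in control. WSD was the lowest group and did not overlap the others. The log2 fold change was -0.54 ± 0.14 (adjusted p = 0.0333) for WSD against control and 0.51 ± 0.14 (adjusted p = 0.0791) for WSD+T against WSD. Its other probe sets gave -0.56, -0.31 and -0.31 for WSD against control (limma adjusted p = 0.0452, 0.345 and 0.162). Only leaving out WSD replicate 3 or control replicate 3 kept the NFATC3 call, and the adjusted p reached 0.0977 over the 9 arrays left out in turn. Median centring ended it too. NFAT5, a relative that does not depend on calcineurin, gave -0.24 ± 0.16 (adjusted p = 0.326) for WSD against control. NFATC4 lay below the filter, with no signal above 33.7.

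The phosphatase itself was measured in part. The array annotation used here gave PPP3CB and PPP3CC, catalytic subunits of calcineurin, and CALM3, a calmodulin gene, out of 8 genes listed. None of the 3 passed limma's test in any comparison, where 4.74% of all genes were higher and 10.7% lower in WSD against control. PPP3CB read 1576 to 1642 in WSD+T, 1579.8 to 1894 in WSD and 1495 to 1703 in control, with a log2 fold change of 0.10 ± 0.13 for WSD against control (adjusted p = 0.629). PPP3CC gave 0.35 ± 0.15 (adjusted p = 0.163) and CALM3 -0.23 ± 0.13 (adjusted p = 0.264). At limma's unadjusted p under 0.05, none of the 3 differed between WSD and control or between WSD+T and WSD. Among all genes 10.7% were higher and 21% lower in WSD against control, and 14.3% and 6.35% in WSD+T against WSD. In WSD+T against control 1 was lower, beside 10.4% of all genes.

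Among 7 tested regulators of calcineurin, RCAN1 was higher in WSD than in control (14.3%, beside 4.74% of all genes) and no other passed. RCAN1 encodes an inhibitor of calcineurin and is itself a classic NFAT target. It read 726, 543 and 782 in WSD+T, 1272, 944 and 1038 in WSD, and 620.2, 332 and 339.9 in control. WSD lay above every other array, and WSD+T overlapped control. The log2 fold change was 1.35 ± 0.26 (adjusted p = 0.0137) for WSD against control and -0.66 ± 0.26 (adjusted p = 0.196) for WSD+T against WSD. A second RCAN1 probe set gave 1.61 ± 0.33 (adjusted p = 0.0155) for WSD against control. RCAN2 gave 0.87 ± 0.29 (adjusted p = 0.080) there and RCAN3 lay below the filter.

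Calcium entry and release had 14 tested genes. Of these, 1 was higher and 1 lower in WSD than in control (7.14% each), beside 4.74% and 10.7% of all genes. ORAI1, the pore of the store-operated calcium channel, read 97.0, 68.7 and 79.9 in WSD+T, 170, 140 and 141 in WSD, and 98.4, 42.6 and 62.7 in control. WSD again stood above the other arrays. Its log2 fold change was 1.03 ± 0.24 (adjusted p = 0.0250) for WSD against control and -0.77 ± 0.24 (adjusted p = 0.117) for WSD+T against WSD. STIM1, the sensor that opens ORAI1, gave -0.25 ± 0.17 (adjusted p = 0.336) for WSD against control. PLCG1, a phospholipase whose product releases stored calcium, had a log2 fold change of -0.92 ± 0.26 (adjusted p = 0.0453). Without WSD replicate 1, control replicate 2 or control replicate 3 the ORAI1 call was lost, with an adjusted p of up to 0.0731. PLCG1 kept its call only without WSD replicate 2 or WSD replicate 3, and its adjusted p reached 0.127 over the arrays left out in turn. Of the 10 other settings it kept the call in 2, and lost it with a pseudocount of 1, no filter, quantile, median or cyclic loess scaling, the groups alone, the replicate block and WSD+T replicates 1 and 3 averaged.

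**Figure D4:**
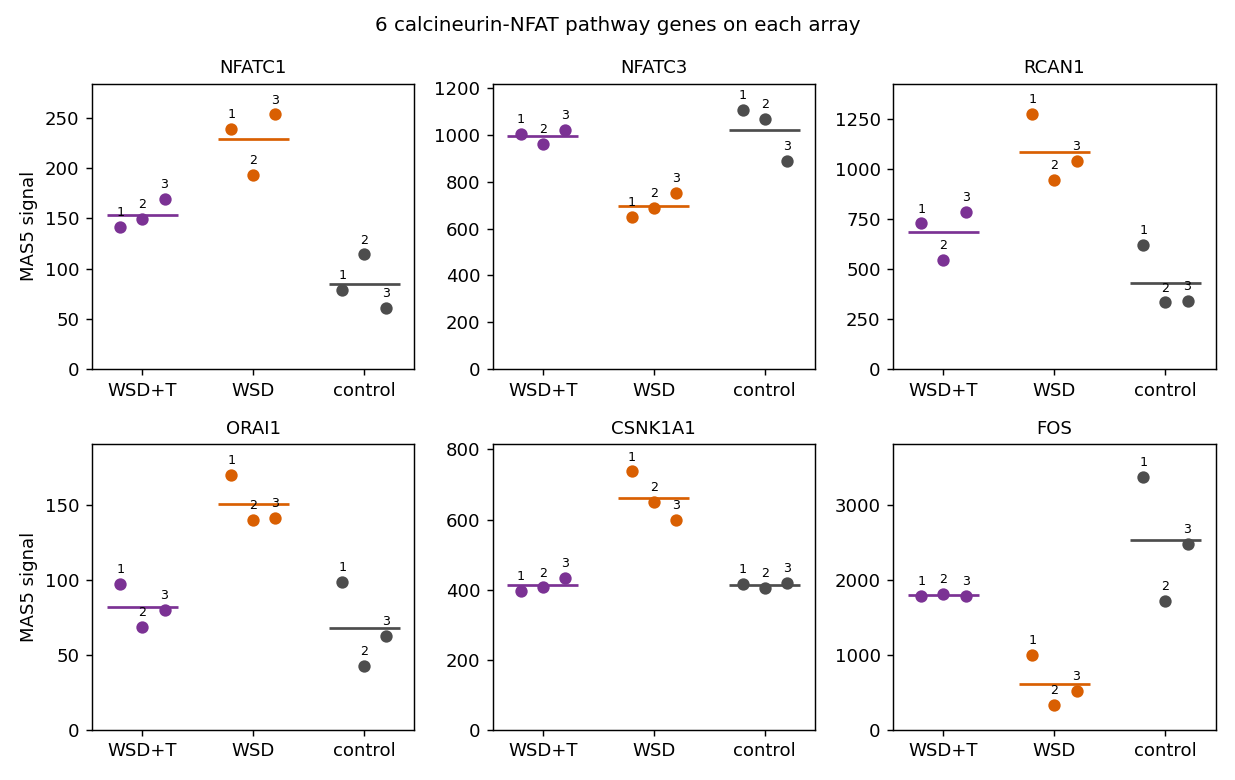
Signal (linear axes from 0) of 6 pathway genes on each array of WSD+T, WSD and control, with replicate numbers and group means as bars. WSD lies above the other arrays for NFATC1, RCAN1, ORAI1 and CSNK1A1 and below them for NFATC3 and FOS.

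NFAT kinases and nuclear export had 11 tested genes. Of these, 1 was higher and 1 lower in WSD than in control (9.09% each), beside 4.74% and 10.7% of all genes. In WSD+T against WSD, 1 was higher and 1 lower (9.09% each), beside 2.06% and 0.79% of all genes. CSNK1A1, a casein kinase that keeps NFAT phosphorylated, read 395, 406 and 434 in WSD+T, 737, 649.8 and 599 in WSD, and 415, 406 and 419.7 in control. The WSD+T and control arrays lay in 1 narrow band below WSD. It was higher in WSD than in control by 0.65 ± 0.13 on the log2 scale (adjusted p = 0.0144) and lower in WSD+T than in WSD by -0.66 ± 0.13 (adjusted p = 0.0382). Its other 2 probe sets gave 0.16 and 0.04 for WSD against control and did not pass. DYRK1B, a kinase related to the NFAT kinase DYRK1A, ran the other way at low signals, with 42.5, 49.7 and 42.6 in WSD+T, 15.6, 22.6 and 14.1 in WSD, and 33.7, 33.5 and 45.0 in control.

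DYRK1B had a log2 fold change of -0.68 ± 0.15 (adjusted p = 0.0235) for WSD against control and 0.87 ± 0.15 (adjusted p = 0.0316) for WSD+T against WSD. In WSD+T against WSD, neither CSNK1A1 nor DYRK1B passed without any 1 of the WSD+T arrays or without WSD replicate 1, and CSNK1A1 also failed without any 1 control array. Their adjusted p reached 0.170 and 0.147 over the arrays left out in turn. For WSD against control, DYRK1B failed without WSD replicate 1, control replicate 2 or control replicate 3, with an adjusted p of up to 0.0694, and also with a pseudocount of 64 or median centring. GSK3B, which promotes nuclear export of NFAT, gave 0.52 ± 0.20 (adjusted p = 0.114), and DYRK1A gave 0.01 ± 0.12 (adjusted p = 0.981) for WSD against control. DYRK2's brightest probe set gave 0.50 ± 0.16 there (limma adjusted p = 0.074). Its fainter probe sets gave 0.92 and 0.99 (limma adjusted p = 0.0125 and 0.0164).

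Partner transcription factors had 18 tested genes. Of these, 1 was higher and 1 lower in WSD than in control (5.56% each), beside 4.74% and 10.7% of all genes. FOS, a component of the AP-1 dimer that binds beside NFAT, read 1786, 1811 and 1785 in WSD+T, 994, 327 and 519 in WSD, and 3377, 1722 and 2484 in control. WSD was the lowest group without overlap. The log2 fold change of FOS was -2.11 ± 0.38 (adjusted p = 0.0108) for WSD against control and 1.67 ± 0.38 (adjusted p = 0.0538) for WSD+T against WSD. RUNX1, a transcription factor that partners NFAT in T cells, was higher in WSD than in control by 1.00 ± 0.19 (adjusted p = 0.0117), and gave -0.21 ± 0.19 (adjusted p = 0.594) for WSD+T against WSD.

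The list of known NFAT targets had 20 tested genes. Of these, 5 were higher (25%) and 2 lower (10%) in WSD than in control, beside 4.74% and 10.7% of all genes. Because the list was chosen with earlier results of these data known, its shares beside all genes are a description. In WSD+T against WSD 0 passed limma's test, beside 2.06% higher and 0.79% lower among all genes. At limma's unadjusted p under 0.05, 3 were higher (15%) and 5 lower (25%) there, beside 14.3% and 6.35% of all genes. Besides RCAN1, the targets that passed as higher in WSD than in control were CDKN1A, CTSK, F3 and HAS2. CDKN1A, an inhibitor of the cell cycle, read 905, 703 and 1121 in WSD+T, 2066, 1392 and 1680.3 in WSD, and 598, 368 and 722 in control, with a log2 fold change of 1.61 ± 0.28 (adjusted p = 0.00977) for WSD against control. CTSK, the matrix protease cathepsin K, read 890.1, 936 and 896 in WSD+T, 1278, 1829 and 1148 in WSD, and 488, 455 and 578 in control, with 1.43 ± 0.19 (adjusted p = 0.00434). In both genes WSD lay above all other arrays.

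F3, the coagulation trigger tissue factor, had a log2 fold change of 0.84 ± 0.20 (adjusted p = 0.0250) for WSD against control. HAS2, which makes the hyaluronan of the cumulus matrix, read 87.9, 56.4 and 307 in WSD+T, 1213, 284 and 702 in WSD, and 145, 98.5 and 26.5 in control. HAS2 had a fold change of 2.80 ± 0.72 on the log2 scale (adjusted p = 0.0356), with WSD+T replicate 3 above WSD replicate 2. The F3 call was lost without WSD replicate 1, control replicate 1 or control replicate 2 (adjusted p up to 0.0823). The HAS2 call was lost without WSD+T replicate 1, WSD replicate 1, control replicate 2 or control replicate 3 (adjusted p up to 0.109), and also with no filter.

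The lower targets were IL5 and SELE. IL5, a T cell cytokine, read 65.1, 62.2 and 58.4 in WSD+T, 25.3, 13.7 and 13.8 in WSD, and 77.3, 80.6 and 181 in control. Its log2 fold change was -1.87 ± 0.28 (adjusted p = 0.00683) for WSD against control, and the WSD mean of 17.6 lay under the signal that matches the filter. SELE, an adhesion molecule of activated endothelium, read 69.1, 53.7 and 59.9 in WSD+T, 29.1, 23.0 and 11.1 in WSD, and 299, 62.3 and 165 in control, with -2.18 ± 0.44 (adjusted p = 0.0157). Without control replicate 3 the adjusted p of SELE was 0.0531.

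The named genes with the nearest profile to NFATC2 were found by the root mean square difference from its brightest probe set over the 9 arrays, each probe set first centred on its own mean log2 value. The second NFATC2 probe set differed by 0.22, whereas the median over 26382 probe sets was 1.90 and the nearest 1% lay within 1.31. The 10 nearest genes were CA13 at 0.66, CHAC1 at 0.69, TNFAIP6 at 0.77, GLUD1 at 0.79, MLF1 at 0.80, SLC7A11 at 0.82, SNX17 at 0.83, TFPI2 at 0.85, ZNF655 at 0.87 and S100A6 at 0.89. None came from the pathway lists. A further 8 probe sets without a single symbol lay nearer than the last of these. Since likeness chose these genes, their values are a description.

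CA13, a cytosolic carbonic anhydrase, read 27.6, 13.4 and 57.3 in WSD+T, 352, 211 and 217 in WSD, and 35.8, 16.7 and 15.2 in control. CHAC1, a glutathione-degrading enzyme of the amino acid stress response, read 9.79, 10.4 and 73.1 in WSD+T, 343, 122 and 410.02 in WSD, and 8.76, 16.9 and 1.64 in control. GLUD1, the mitochondrial glutamate dehydrogenase, read 219, 237 and 287 in WSD+T, 1337, 1003 and 1501 in WSD, and 283, 155 and 207 in control. WSD stood above all other arrays in each of the 10, and WSD+T overlapped control in all but ZNF655. Their log2 differences between WSD and control ran from 2.30 (S100A6) to 3.51 (CHAC1), all under the 4.16 of NFATC2, and between WSD+T and WSD from -2.81 (CHAC1) to -1.56 (TFPI2). In all 10, as in NFATC2, replicate 3 was the highest of the WSD+T arrays.

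**Figure D5:**
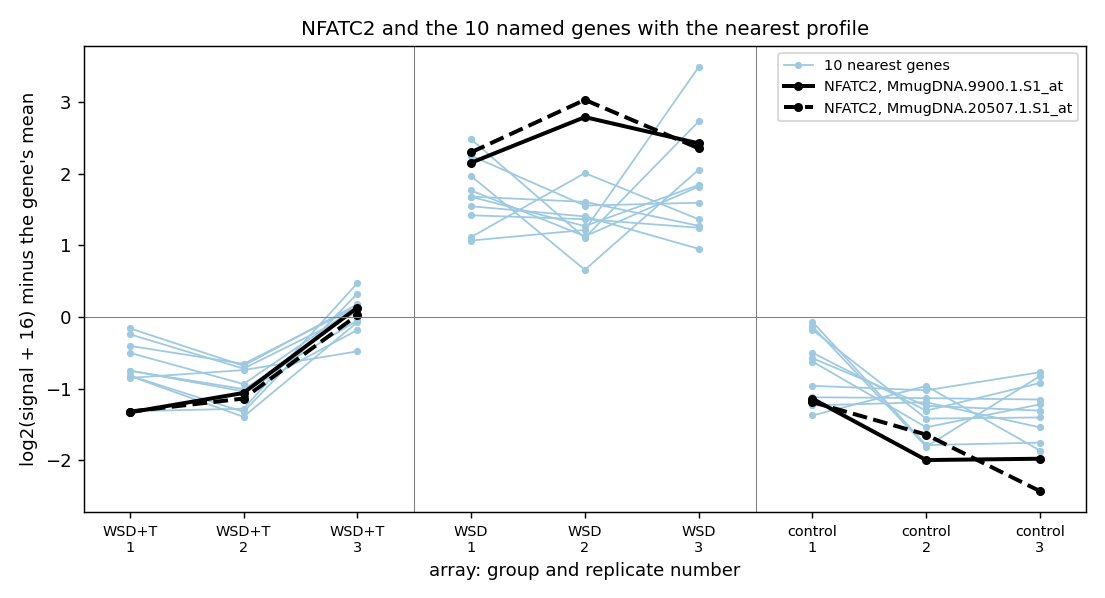
Log2 of signal plus 16, minus each probe set's mean over the 9 arrays, for both tested NFATC2 probe sets (black) and the 10 nearest named genes (blue), by array; lines join the points of 1 group and carry no order. All profiles lie above 0 on the WSD arrays, and WSD+T replicate 3 sits above WSD+T replicates 1 and 2 in every one of them.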

How the data were processed

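Each deposited value is a probe set's signal intensity on a linear scale, from a 1-colour Affymetrix array, made by the authors with MAS5 of an unstated version, per the submitters' processing notes; per the labels, RNA was amplified for a 3' assay and biotin labelled. Any step before the scaling, and the genome build, are not given in the sources used here. Gene names came from the array's annotation.

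From these intensities, log2 of signal plus 16 was taken, which understates fold changes at low signal. Control probe sets (99) were left out, and of the other 52766 the 26383 whose mean over the 9 arrays reached the median of all (5.22, a signal of about 21.2) were tested. A linear model with 1 coefficient for each group was fitted to all arrays by limma 3.58.1 (R 4.3.3), using eBayes with 6 residual and 2.69 prior degrees of freedom, two-sided, with Benjamini-Hochberg adjustment over all tested probe sets and a threshold of 0.05. A gene (10002 tested) counts by its tested probe set of highest mean. The code was tested on simulated data with known changes. Figures used matplotlib 3.10.9 in Python 3.11.15.

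Groups and replicate numbers came from the labels, which call the replicates biological. Nothing in them ties a number to a shared day, so no block was used. NFATC2, the 7 pathway lists and the 11 cell type marker lists were chosen with earlier results of these data known. Named were all NFATC2 probe sets, a fixed set of core pathway genes, up to 6 genes per pathway list and comparison by smallest p among those past the threshold, the 10 nearest profiles, and up to 4 markers per cell type by highest mean. CORO1A, CD8B, INHBB, NR5A1, DYRK2 and the genes under other observations were named after their values were seen. Alternatives were pseudocounts of 1 and 64, no filter, quantile, median and cyclic loess scaling, each pair of groups alone, a replicate block, WSD+T replicates 1 and 3 averaged, array weights, each array left out and any tested probe set of a gene.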

Additional observations from a re-analysis of the deposited data

How the results depend on the processing

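The 9 arrays limit what could be called, and MAS5 detection calls were not used here. The log2 differences of both tested NFATC2 probe sets kept their direction under all 19 alternatives. For the brightest they ran from 3.68 to 4.44 for WSD against control, -3.65 to -2.90 for WSD+T against WSD and 0.51 to 1.24 for WSD+T against control, and for the second from 3.41 to 4.85, -3.79 to -2.85 and 0.52 to 1.24. None of the 15 pathway genes past the threshold turned direction under these alternatives. The cause of the shifts below was not tested.

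Pathway genes higher in WSD than in control, 9 in the main analysis, numbered 3 when the pair of groups was fitted alone (CDKN1A, CTSK and NFATC1), 24 with array weights, and 6 to 17 with 1 array left out. All genes gave 474, 93, 1735 and 200 to 1141 in the same order. Pathway genes lower there, 6 in the main analysis, numbered 3 with median centring, 1 with the groups alone (IL5), 3 with the replicate block, 13 with array weights, and 3 to 7 with 1 array left out. For all genes these counts were 1071, 527, 239, 618, 2735 and 483 to 1523. For WSD+T against WSD, the 1 higher gene became 2 with a pseudocount of 1, 0 with median centring, the groups alone, the replicate block or WSD+T replicates 1 and 3 averaged, 18 with array weights, and 0 to 2 with 1 array left out. The 206 higher among all genes became 173 with that pseudocount, 47 with median centring and 2 with the groups alone. They became 1 with the block, 0 with the averaging, 3671 with array weights and 0 to 421 with 1 array left out. The 1 lower pathway gene became 0 with the groups alone, the replicate block or that averaging, 30 with array weights, and 0 to 3 with 1 array left out. Over all genes the 79 lower became 1 with the groups alone and 0 with the block or the averaging. They became 2272 with array weights and 0 to 175 with 1 array left out. For WSD+T against control, the count of 0 higher became 1 with a pseudocount of 64 or cyclic loess, 9 with the groups alone, 12 with array weights, and 0 to 6 with 1 array left out, and the count of 0 lower became 1 with the groups alone and 5 with array weights. Among all genes the 62 higher became 90, 71, 754, 1076 and 0 to 396 in that order. The 173 lower became 588 with the groups alone and 896 with array weights. Counting any tested probe set gave 10 higher and 8 lower genes in WSD against control. That count was not made over all genes, so it has no baseline.

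Over the whole array, the 1545 genes called in WSD against control became 332 with the groups alone, 877 with the replicate block, 1011 with the averaging, 4470 with array weights and 683 to 2664 with 1 array left out. The 285 of WSD+T against WSD became 100 with median centring, 3 with the groups alone, 1 with the block, 0 with the averaging, 5943 with array weights and 0 to 590 with 1 array left out. The 235 of WSD+T against control became 152 with a pseudocount of 1, 1342 with the groups alone, 2 with the block, 0 with the averaging, 1972 with array weights and 0 to 745 with 1 array left out. The higher share of calls in WSD against control was 30.7% in the main analysis, 37.6% with quantile normalization, 51.0% with median centring and 44.5% with cyclic loess. In WSD+T against WSD it was 72.3%, 57.9%, 47.0% and 49.6% under the same settings. limma's estimate of array weights stopped before it converged. Replicate numbers did not pair the arrays: over 9 same-numbered pairs the residual correlation ran from -0.302 to 0.19, and 0 of 9 arrays correlated best with their own number.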

Other observations

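WSD+T replicate 3 stood above its group in few probe sets, NFATC2 among them. In that array 13 of the 26383 tested probe sets exceeded the mean of WSD+T replicates 1 and 2 by more than 1 on the log2 scale. NFATC2's tested probe sets exceeded that mean by 1.33 and 1.25 and ranked 7 and 9 by that excess. The other named genes among the 13 were HAS2 at 1.90, CHAC1 at 1.77, SLC7A11 at 1.40, CA13 at 1.03 and GPR3 at 1.03, and 6 probe sets lacked a single symbol. NFATC2 was chosen for its height in WSD, and CHAC1, SLC7A11 and CA13 were among the genes chosen for likeness to it. No calls in WSD against control are therefore given for the 13. The number of probe sets with such an excess was 5 for WSD+T replicate 1 and 153 for WSD+T replicate 2. In WSD against control, 1262 probe sets were called higher. Of these, 378 were highest in replicate 1 of the WSD+T arrays, 121 in replicate 2 and 763 in replicate 3. The same split over all 26383 tested probe sets was not counted, so these counts have no baseline. The WSD+T arrays enter the spread of the test behind these calls.

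Genes that lie beside NFATC2 in RefSeq's gene order for the rhesus genome were read as well, within 4 protein-coding genes on either side. DPM1, a subunit of an enzyme that supplies mannose for glycosylation, lies on one side and read 692, 638 and 731 in WSD+T, 1252, 1037 and 1302 in WSD, and 701, 712 and 784 in control. DPM1 was higher in WSD than in control by 0.69 ± 0.14 on the log2 scale (limma adjusted p = 0.0157) and lower in WSD+T than in WSD by -0.78 ± 0.14 (limma adjusted p = 0.0321), and its second probe set gave 0.61 for WSD against control (limma adjusted p = 0.0913). These settings were tried after the values were seen: the DPM1 call against control was lost without control replicate 2 (limma adjusted p = 0.0524), and that against WSD without any 1 WSD+T array, without WSD replicate 1 or without control replicate 1, with an adjusted p of up to 0.147. TSHZ2, a zinc finger gene on the other side, gave -0.75 ± 0.19 for WSD against control (limma adjusted p = 0.0347, kept only without WSD replicate 1 or control replicate 3 among the arrays left out, and up to 0.107) and 0.78 ± 0.19 for WSD+T against WSD (limma adjusted p = 0.0662). ADNP and MOCS3 gave -0.26 and -0.06 for WSD against control and did not pass, SALL4 lay below the filter, and KCNG1, ATP9A and ZFP64 had no probe set by symbol.

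IL2, the best known NFAT target, had 3 probe sets, of which 2 passed the filter. MmuSTS.3291.1.S1_at read 1155 to 1265 in WSD+T, 961 to 1986 in WSD and 896 to 1059 in control, and MmunewRS.438.1.S1_at read 0.237 to 1.74 in WSD+T, 0.586 to 1.60 in WSD and 0.432 to 2.73 in control. MmugDNA.19007.1.S1_at read 377 to 477 in WSD+T, 298 to 970.2 in WSD and 232 to 372 in control. The pair that passed gave 0.54 ± 0.24 and 0.84 ± 0.37 for WSD against control (limma adjusted p = 0.164 and 0.166).

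Summed signals of the remaining cell type lists were as follows. Theca markers summed to 2931 to 3098 in WSD+T, 3087 to 4916 in WSD and 3860.2 to 4981 in control. Endothelial markers summed to 2319 to 2653 in WSD+T, 677 to 4142 in WSD and 1294 to 1905 in control, and smooth muscle and pericyte markers to 4765 to 5131, 3449.6 to 4460.4 and 2642 to 3392 in the same groups. Fibroblast and stroma markers summed to 8211 to 9523 in WSD+T, 5385 to 9415 in WSD and 7528 to 8838 in control. Mast cell markers summed to 267 to 317 in WSD+T, 168 to 733 in WSD and 66.7 to 184 in control, and B cell markers to 40.7 to 46.0, 27.3 to 59.7 and 34.99 to 77.0 in the same groups. Of the 63 tested markers in all 11 lists, 3 were higher in WSD than in control (4.76%: TAGLN, INHBA and ZP4) and 6 lower (9.52%: LUM, INHA, INHBB, CYP17A1, HSD3B2 and PTCH1), beside 4.74% and 10.7% of all genes.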
